A study of Rattus norvegicus with 6 samples.

Results

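The genes described here are 50 cyclins, kinases, replication factors and mitotic genes, chosen by name and grouped by the phase of the cell cycle in which each is best known: 10 for G1, 14 for S phase and 26 for G2 and mitosis (G2/M). Of these, 47 have a row among the 20264 gene rows of the combined count table: 8 G1, 14 S and 25 G2/M members. Ccnd2, E2f1 and Ccnb2 were not analysed here. All 47 passed the filter on low counts, and each of their rows is identical to the counts of 1 gene in the files of the single libraries.

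RNA-seq was performed on primary nucleus pulposus cells (NPCs), the cells of the gelatinous core of the intervertebral disc, taken from the tails of male wild type Sprague-Dawley rats. All 6 libraries came from cells exposed to tert-butyl hydroperoxide (TBHP), an organic peroxide used to provoke oxidative stress and senescence. The 3 libraries of the TBHP group received TBHP alone, and the 3 of the TBHP+FGF21 group received TBHP together with recombinant FGF21, a secreted fibroblast growth factor. The sample labels give no dose, duration or age, no library is from cells without TBHP, and the sources do not state whether the replicates came from separate animals, so p-values measure the spread between these libraries, which may be technical. In the treatment labels, replicate 1 of the TBHP+FGF21 group carries FGF21, replicate 2 carries FGF22 and replicate 3 carries FGF23, whereas the protocol and the titles describe a single FGF21 group. The group was analysed as labelled by the protocol, and replicate 1 was also compared alone with TBHP.

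Cells enter the cycle when D-type cyclins with Cdk4 and Cdk6, followed by E-type cyclins with Cdk2, phosphorylate the retinoblastoma protein and release E2F factors, which switch on the genes of DNA replication. A second wave follows later, in which genes for mitosis are raised by B-Myb and Foxm1 through promoter elements of their own. When a cell stops dividing, the DREAM complex and the retinoblastoma protein shut both waves down, and the fall of the mitotic genes and of Lmnb1, a nuclear lamina protein, is commonly read beside senescence.

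Promoters of the members are shown because they hold the letters that this textbook account rests on. RefSeq's promoter table (build GRCr8) covers 250 bases before to 50 bases after each start site and holds 35 of the 47 members. Both strands were searched for the cell cycle genes homology region (CHR; TTTGAA or TTCGAA), to which DREAM and B-Myb complexes bind, for the NF-Y box (CCAAT), and for E2F cores (TTCCCGC or TTGGCGC or TTCGCGC). A stretch matching more than 1 motif counts for each. Matches are in capitals, and an overlapping pair of E2F cores on opposite strands appears as 1 longer run. The 6 genes are Mcm2 and Cdc25b, which had the smallest p-values of the members, Mcm6, from the same helicase as Mcm2, and Cdc20, Ccnb1 and Top2a, mitotic genes that followed single libraries.
Mcm2 (S; chr4:122918045-122918344, minus strand): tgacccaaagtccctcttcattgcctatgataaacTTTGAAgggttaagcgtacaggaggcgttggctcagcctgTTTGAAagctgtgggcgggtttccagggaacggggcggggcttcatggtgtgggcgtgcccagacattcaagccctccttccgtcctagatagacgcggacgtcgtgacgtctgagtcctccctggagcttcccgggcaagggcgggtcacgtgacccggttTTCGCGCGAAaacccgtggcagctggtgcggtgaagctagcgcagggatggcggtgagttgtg
Mcm6 (S; chr13:42404303-42404602, minus strand): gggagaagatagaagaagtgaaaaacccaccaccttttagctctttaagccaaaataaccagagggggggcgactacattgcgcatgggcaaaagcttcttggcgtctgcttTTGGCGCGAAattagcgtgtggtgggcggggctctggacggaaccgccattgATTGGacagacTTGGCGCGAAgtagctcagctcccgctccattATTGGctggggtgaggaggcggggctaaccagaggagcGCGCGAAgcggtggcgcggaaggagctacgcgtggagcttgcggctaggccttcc
Cdc25b (G2/M; chr3:138859923-138860222, plus strand): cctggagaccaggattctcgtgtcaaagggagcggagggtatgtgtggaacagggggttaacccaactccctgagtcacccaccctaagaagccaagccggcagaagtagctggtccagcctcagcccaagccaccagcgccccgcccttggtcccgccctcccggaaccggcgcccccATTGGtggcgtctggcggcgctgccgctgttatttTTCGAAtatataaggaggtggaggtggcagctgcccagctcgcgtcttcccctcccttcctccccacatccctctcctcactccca
Cdc20 (G2/M; chr5:137255750-137256049, minus strand): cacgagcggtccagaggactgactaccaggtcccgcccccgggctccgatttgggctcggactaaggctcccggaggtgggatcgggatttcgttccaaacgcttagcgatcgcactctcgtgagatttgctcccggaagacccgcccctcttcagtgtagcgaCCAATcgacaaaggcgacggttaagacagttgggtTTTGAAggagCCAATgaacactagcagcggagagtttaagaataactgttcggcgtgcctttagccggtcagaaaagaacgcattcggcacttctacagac
Ccnb1 (G2/M; chr2:33655176-33655475, minus strand): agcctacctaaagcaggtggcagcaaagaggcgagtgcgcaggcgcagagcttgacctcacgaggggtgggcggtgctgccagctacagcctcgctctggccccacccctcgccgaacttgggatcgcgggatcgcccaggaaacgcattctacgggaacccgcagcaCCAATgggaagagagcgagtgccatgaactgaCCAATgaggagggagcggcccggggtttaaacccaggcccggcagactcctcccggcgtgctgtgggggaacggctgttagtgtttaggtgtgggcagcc
Top2a (G2/M; chr10:84473044-84473343, minus strand): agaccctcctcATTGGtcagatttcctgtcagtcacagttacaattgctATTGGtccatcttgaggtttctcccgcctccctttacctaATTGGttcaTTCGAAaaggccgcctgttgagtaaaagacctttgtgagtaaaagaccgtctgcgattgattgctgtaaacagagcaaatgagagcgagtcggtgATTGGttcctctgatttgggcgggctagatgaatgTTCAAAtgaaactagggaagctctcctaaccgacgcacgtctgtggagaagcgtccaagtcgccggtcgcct
The capitals show E2F cores close before the start site of Mcm2 and Mcm6, and NF-Y boxes beside a CHR in Cdc25b, Cdc20 and Top2a. Ccnb1 holds NF-Y boxes with no CHR of these letters in the window.

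Across the 35 promoters, the phases differed in the letters they held. A CHR was found in 14 of 20 G2/M promoters (70%) and 3 of 11 S promoters (27.3%), against 13.3% of the 9226 promoters of genes tested here and 19.5% of all 27457 promoters in the table. A CHR together with an NF-Y box was found in 13 of 20 G2/M promoters (65%) and 5.53% of those of tested genes. E2F cores showed the other order: they were in 8 of 11 S promoters (72.7%) and 3 of 20 G2/M promoters (15%), against 15.0% of those of tested genes and 7.97% of the whole table. An NF-Y box, with or without a CHR, was in 17 of 20 G2/M promoters (85%) and 8 of 11 S promoters (72.7%), against 38.1%. Only 4 G1 members have a promoter in the table; none holds a CHR and 1 holds an E2F core. These matches describe letters in a window and were not tested.

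**Figure D1:**
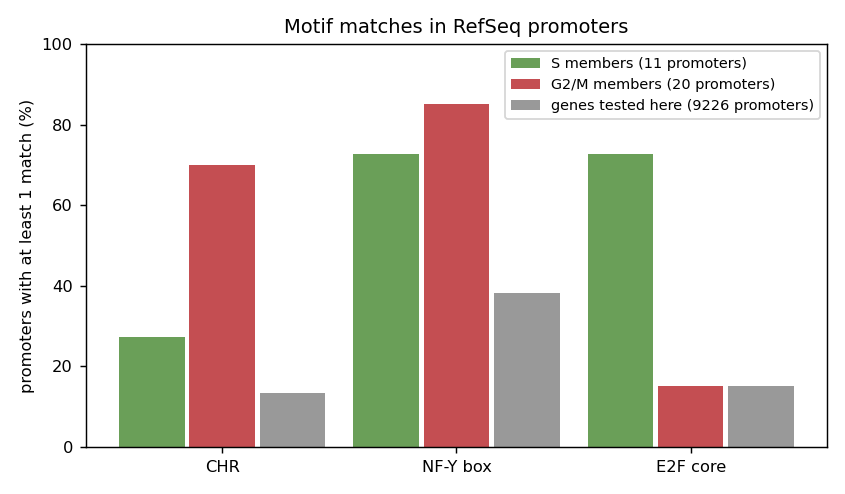
Share of promoters (%, y axis) holding at least 1 match to each motif (x axis) among S members (green, 11 promoters), G2/M members (red, 20 promoters) and all genes tested here (grey, 9226 promoters). The CHR bar is tallest for G2/M members (70%) and the E2F bar for S members (72.7%).

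Libraries held 18277732 to 22426190 counts. At this depth the members were counted between 87 and 41563 times per library, for which the counting error alone was 10.7% and 0.491%. Replicate 2 of the TBHP+FGF21 group lay closer to the TBHP libraries than to its own group before any cell cycle gene was considered. Over genes with at least 20 counts in a pair of libraries, its chi-square per gene was 7.36, 9.52 and 8.52 against TBHP replicates 1, 2 and 3, but 22.9 and 44.5 against TBHP+FGF21 replicates 1 and 3, where sampling noise alone gives about 1. The rest of its group was no tight pair: TBHP+FGF21 replicates 1 and 3 differed from each other by 22.9. TBHP+FGF21 replicate 1 was also closer to TBHP replicate 3 (15.3). TBHP replicate 3 differed from TBHP replicates 1 and 2 by 21.3 and 23.3. Why TBHP+FGF21 replicate 2 lay closer to TBHP was not tested. Its depth (20979216 counts) lay inside the range of the others. The medians, the calls and the spread are therefore also given below without it. Markers of leukocytes, endothelium and red cells were at or near 0 with the exception of Cd14. Of 11 leukocyte markers, 5 were at 0 in every library, Ptprc, Adgre1 and C1qa among them, Cd68 was at 1.27 to 2.27 CPM (the count relative to the library's scaled total, TMM scaling) and Cd14 at 25.0 to 35.6 CPM. Their sum was 32.2 to 37.9 CPM with TBHP and 26.7 to 32.9 CPM with FGF21, and 32.0 CPM in TBHP+FGF21 replicate 2. The endothelial genes Cdh5, Kdr and Emcn and the globin genes Hba-a1 and Hbb were at 0 in every library.

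The sums of the disc's own markers, each mostly from a single gene, differed among the TBHP+FGF21 libraries, also between replicates 1 and 3. Of 15 nucleus pulposus markers with a row, the notochordal genes Tbxt, Noto and Shh were at 0 in every library. The sum of the 15, mostly from Acan, was 2814 to 3252 CPM with TBHP. It was 3940 and 4859 CPM in TBHP+FGF21 replicates 1 and 3, and 3179 CPM in replicate 2. Acan, the cartilage proteoglycan, was at 2681, 2506 and 2939 CPM with TBHP and at 3476, 2864 and 4355 CPM with FGF21. With Pax1 and Sox9, transcription factors of the axial skeleton, it had an unadjusted p under 0.05 in edgeR's quasi-likelihood test (log2 fold changes 0.40, 0.54 and 0.56, all higher with FGF21). All 3 were lowest in replicate 2 within the FGF21 group. Of the 10 markers tested, however, 5 were higher and 5 lower with FGF21. The lower ones were Krt8, Cd24, Car3, Col2a1 and Chad, each at 4.27 CPM or less in every library. Groups did not overlap for 2 of the 10, both lower (5% of all genes). Car3, Col2a1 and Chad were highest in replicate 2 within the FGF21 group. The 11 annulus and fibroblast markers summed to 44722 to 49220 CPM with TBHP and to 43220, 46778 and 33618 CPM with FGF21, mostly from Col1a1. This sum was thus highest in replicate 2 within the FGF21 group. Single markers of the list did not share that order. Within the FGF21 group, Col1a1, Col5a1 and Scx were highest in replicate 2, whereas Mkx, Thbs4, Fbln1 and Pdgfra were lowest there. Scx was at 89.0, 128 and 84.7 CPM and Pdgfra at 128, 89.9 and 147 CPM in the FGF21 libraries. Col3a1 was highest in replicate 1, at 3327, 3175 and 3048 CPM. Col1a2 was too low to rank, at 0.43, 0.67 and 0.65 CPM. The part of these markers in the cell cycle values was not tested.

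No cell cycle gene passed a test over all genes for a difference between TBHP+FGF21 and TBHP. With edgeR's quasi-likelihood test (Benjamini-Hochberg adjustment), 0 of 47 members had an adjusted p under 0.05, where the background was 1 of 11426 genes (0.00875%; Sirt1, named after its value was seen, whose row equals no row of the single-library files). The smallest adjusted p of a member was 0.553. At an unadjusted p under 0.05, 2 of 47 members differed, Mcm2 and Cdc25b, both higher with FGF21, against 8.92% of all genes (4.63% higher and 4.29% lower). Fold changes of the members ran from -0.17 (Nusap1) to 0.28 (Cdc25b) on the log2 scale. Of the 47, 21 were above 0 and 26 below, and the median was -0.03, against -0.01 for all genes. Every 95% interval lay between -0.72 and 0.62 on that scale, and 31 intervals lay within 0.5 of 0. In these bulk libraries, fewer cycling cells and less RNA per cycling cell cannot be told apart.

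**Figure D2:**
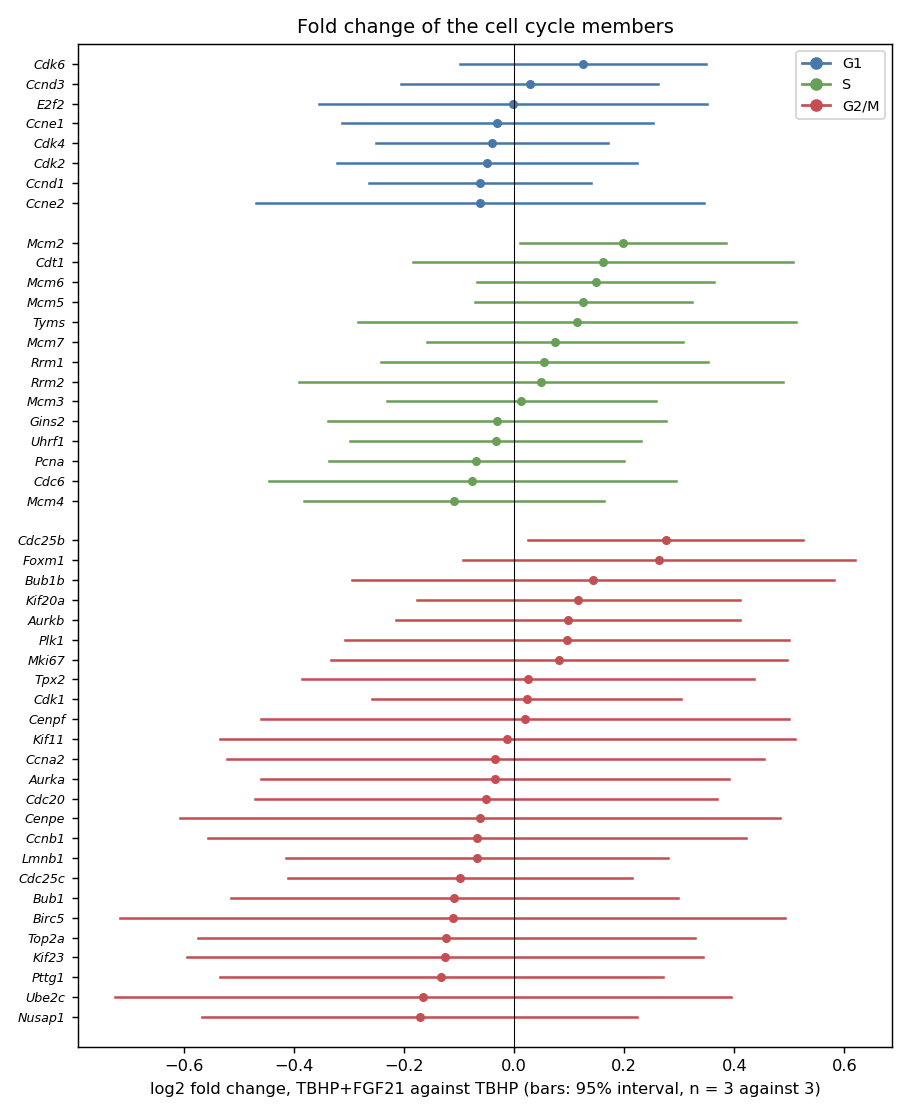
Log2 fold change of each member (x axis; TBHP+FGF21 against TBHP, n = 3 against 3) by gene (y axis), with bars for the 95% interval, in blue for G1, green for S and red for G2/M. The points run from -0.17 to 0.28, and the intervals of Mcm2 and Cdc25b alone leave out 0.

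The G1 members varied little between libraries. Ccnd1, the cyclin that links growth factor signals to Cdk4 and Cdk6, was at 1896, 1864 and 1762 CPM with TBHP and at 1677, 1803 and 1812 CPM with FGF21 added. The groups overlapped, at 1841 ± 70.5 against 1764 ± 75.5 CPM (SD, n = 3 each), and the log2 fold change was -0.06 ± 0.09 (SE). It alone supplied 83.2% to 84.6% of the reads of the 8 G1 members in every library.

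Ccnd3, another D-type cyclin, was at 169, 145 and 163 CPM with TBHP and at 153, 150 and 184 CPM with FGF21, and its groups overlapped. Cdk4, a kinase partner of the D-type cyclins, was at 123, 125 and 109 CPM against 116, 124 and 108 CPM. Cdk6, the other such partner, was at 30.1, 26.5 and 29.1 CPM against 31.7, 29.0 and 32.6 CPM, the largest difference among the G1 members (log2 fold change 0.12 ± 0.10, SE), and its groups overlapped. Ccne1, the cyclin that drives Cdk2 into S phase, was at 11.8, 12.4 and 10.9 CPM against 10.8, 12.5 and 11.1 CPM. Ccne2, Cdk2 and E2f2, whose protein turns on replication genes, had log2 fold changes between -0.06 and 0.00. The median of the 8 was -0.04, with 2 above 0 and 6 below, and no G1 member had an unadjusted p under 0.05 in edgeR's quasi-likelihood test.

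Among the S members, the helicase that unwinds DNA at replication forks held the member with the smallest p. Mcm2, one of its 6 subunits, was at 70.7, 67.6 and 72.8 CPM with TBHP and at 80.9, 82.8 and 78.6 CPM with FGF21. Every FGF21 library was above every TBHP library. Groups did not overlap for 4 of 47 members, a share close to the 9.9% of all genes. All 4 had FGF21 above, where the background was 4.9% above and 5% below, and Mcm2 was among them. The difference (70.4 ± 2.59 against 80.7 ± 2.11 CPM, SD, n = 3 each; log2 fold change 0.20 ± 0.09, SE) had an unadjusted p of 0.0397 and an adjusted p of 0.553 in edgeR's quasi-likelihood test.

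Mcm5 and Mcm6, further subunits of that ring, had groups that did not overlap either. Mcm5 was at 39.5, 41.6 and 41.9 CPM against 44.2, 47.0 and 43.2 CPM, and Mcm6 was at 42.4, 49.4 and 49.2 CPM against 50.2, 55.6 and 50.6 CPM. On the log2 scale the differences were 0.13 and 0.15. The other subunits of the ring did not separate: Mcm3, Mcm4 and Mcm7 had log2 fold changes of 0.01, -0.11 and 0.07, and their groups overlapped. None of the 6 subunits passed the adjusted test.

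The remaining S members had no common direction. Pcna, the clamp that holds the polymerase on DNA, was at 53.3, 66.5 and 58.2 CPM with TBHP and at 51.4, 66.6 and 51.8 CPM with FGF21. Replicate 2 was the highest library in both groups. Rrm1, the large subunit of ribonucleotide reductase, was at 46.8, 59.7 and 65.2 CPM against 57.3, 69.1 and 52.2 CPM. Its smaller partner subunit Rrm2 spread most among the S members, from 39.4 CPM in TBHP+FGF21 replicate 3 to 79.2 CPM in TBHP+FGF21 replicate 2. The origin licensing factors Cdc6 and Cdt1, Gins2 of the replicative helicase, Tyms, which makes thymidylate, and Uhrf1, which carries DNA methylation through replication, had log2 fold changes between -0.08 and 0.16. Of the 14 S members, 9 were above 0 and 5 below, with a median of 0.05.

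**Figure D3:**
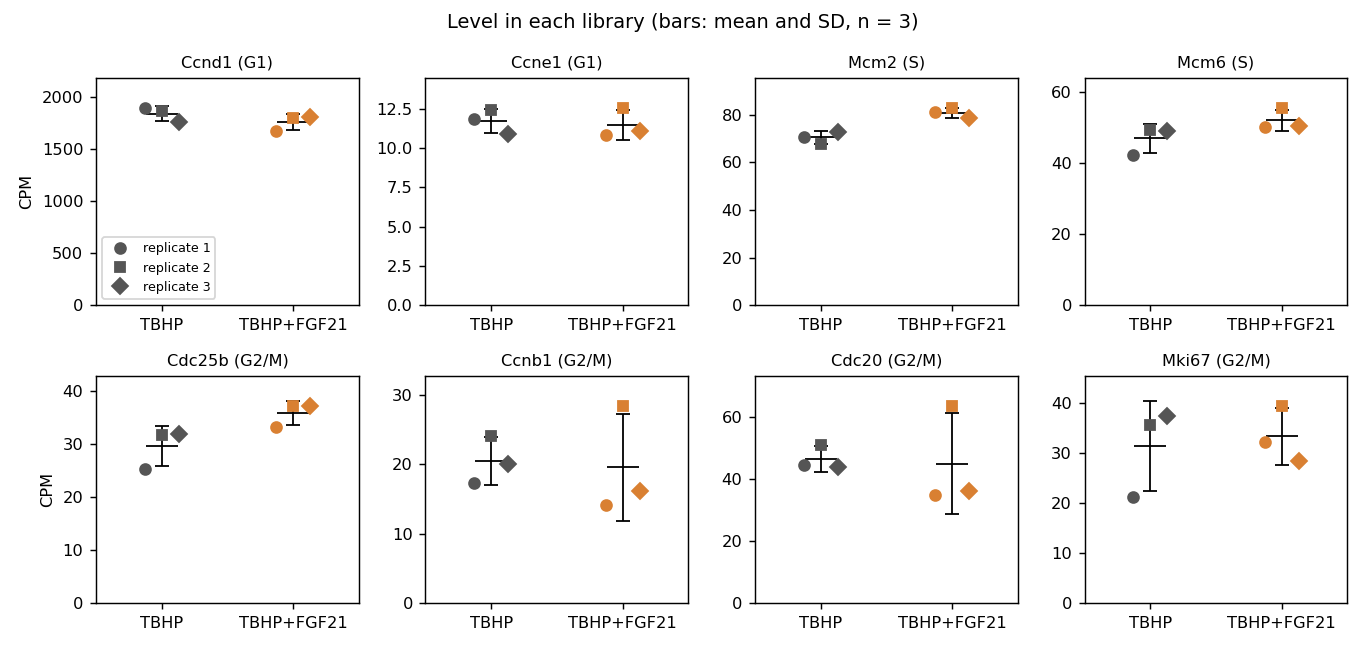
Level of 8 members (CPM, y axes from 0) in each library of the TBHP group (grey) and the TBHP+FGF21 group (orange), with the replicate shown by the symbol and the mean and SD (n = 3) by bars. Mcm2, Mcm6 and Cdc25b separate by group, whereas Ccnb1 and Cdc20 are highest in TBHP+FGF21 replicate 2 and lowest in the rest of that group.

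Levels of the G2/M members varied widely within each group. Ccnb1, the cyclin that with Cdk1 starts mitosis, was at 17.3, 24.1 and 20.0 CPM with TBHP and at 14.2, 28.4 and 16.1 CPM with FGF21. The highest and the 2 lowest libraries were all in the FGF21 group, and the log2 fold change was -0.07 ± 0.22 (SE). Cdc20, which activates the anaphase-promoting complex, had the same shape, at 44.5, 51.2 and 44.0 CPM against 34.9, 63.8 and 36.2 CPM. Ccna2, the cyclin of S phase and early mitosis, was at 15.9, 21.9 and 17.7 CPM against 14.8, 26.3 and 13.3 CPM.

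Cdk1 itself, the mitotic kinase, varied less, at 58.8, 68.1 and 57.1 CPM against 59.5, 74.9 and 52.7 CPM (log2 fold change 0.02 ± 0.13, SE). Top2a, which untangles chromosomes before they part, was at 29.8, 40.0 and 40.0 CPM against 30.9, 46.8 and 23.4 CPM. Mki67, the proliferation marker that coats mitotic chromosomes, was at 21.1, 35.6 and 37.5 CPM against 32.2, 39.5 and 28.3 CPM. Both genes had overlapping groups. Lmnb1 was at 23.5, 30.1 and 27.2 CPM against 22.2, 32.9 and 22.1 CPM, and its log2 fold change was -0.07 ± 0.16 (SE), with a 95% interval of -0.41 to 0.28. Nusap1, a spindle microtubule protein, had the lowest fold change of all members (-0.17 ± 0.18, SE), at 9.78, 11.5 and 10.8 CPM against 8.58, 12.4 and 7.59 CPM.

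Cdc25b, the phosphatase that primes Cdk1 for mitosis, was the exception. It was at 25.2, 31.7 and 31.8 CPM with TBHP and at 33.2, 37.1 and 37.2 CPM with FGF21, so that the groups did not overlap. The log2 fold change was 0.28 ± 0.11 (SE), the largest of the members, with an unadjusted p of 0.0337 and an adjusted p of 0.553 in edgeR's quasi-likelihood test. Foxm1, the transcription factor of the mitotic wave, had the next largest (0.26 ± 0.16, SE), at 15.2, 18.7 and 23.2 CPM against 23.6, 26.2 and 18.9 CPM, and its groups overlapped. Kif20a, a kinesin of cytokinesis, was at 29.6, 38.3 and 38.6 CPM against 36.6, 45.2 and 34.0 CPM. The remaining G2/M members include the kinases Plk1, Aurka, Aurkb, Bub1 and Bub1b, the motors Kif11, Kif23 and Cenpe, and the degradation factors Ube2c and Pttg1. Over all 25 members, 10 were above 0 and 15 below, with a median of -0.03.

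Spread between libraries was widest in G2/M. The highest library was a median of 1.24 times the lowest for the G1 members, 1.34 times for the S members and 1.78 times for the G2/M members, against 1.36 times for all genes tested and 1.30 times for those with a mean of at least 5 CPM. A ratio of at least 1.5 was reached by 1 of 8 G1, 2 of 14 S and 20 of 25 G2/M members, where the background was 33.1% of all genes and 19.9% of those with at least 5 CPM. The biological coefficient of variation, the part of the spread between replicates that counting does not give, had medians of 10.4%, 11.1% and 16.5%, against 11.1% for all genes. Without TBHP+FGF21 replicate 2, the median ratios were 1.24, 1.24 and 1.51, against 1.34 for all genes, and 0 G1, 0 S and 14 G2/M members reached 1.5, where the background was 30.8%. Ube2c, a ubiquitin-conjugating enzyme of mitotic exit, spread most, from 10.3 to 21.6 CPM.

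The highest library was shared by nearly all G2/M members, whereas the lowest was not. The lowest was TBHP+FGF21 replicate 3 for 11 members, TBHP+FGF21 replicate 1 for 7 and TBHP replicate 1 for 7. TBHP+FGF21 replicate 2 was the highest of the 6 libraries for 23 of 25, where the background over all genes was 10.3%, and it was also the highest for 11 of 14 S members but for only 2 of 8 G1 members. The exceptions in G2/M were Cenpe, highest in TBHP replicate 2, and Cdc25b, highest in TBHP+FGF21 replicate 3. It exceeded the mean of the rest of its group by a median of 1.57 times for the G2/M members, 1.24 times for the S members and 1.05 times for the G1 members. Within the TBHP group, replicate 1 was the lowest library for 20 of 25 G2/M members (background 31.9%) and replicate 2 the highest for 19 (background 29.8%). Summed over the 25 genes, the G2/M level was 485, 625 and 570 CPM with TBHP and 498, 732 and 467 CPM with FGF21. The members share these 6 libraries and are not replicates of one another, so the counts describe the libraries and carry no test.

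**Figure D4:**
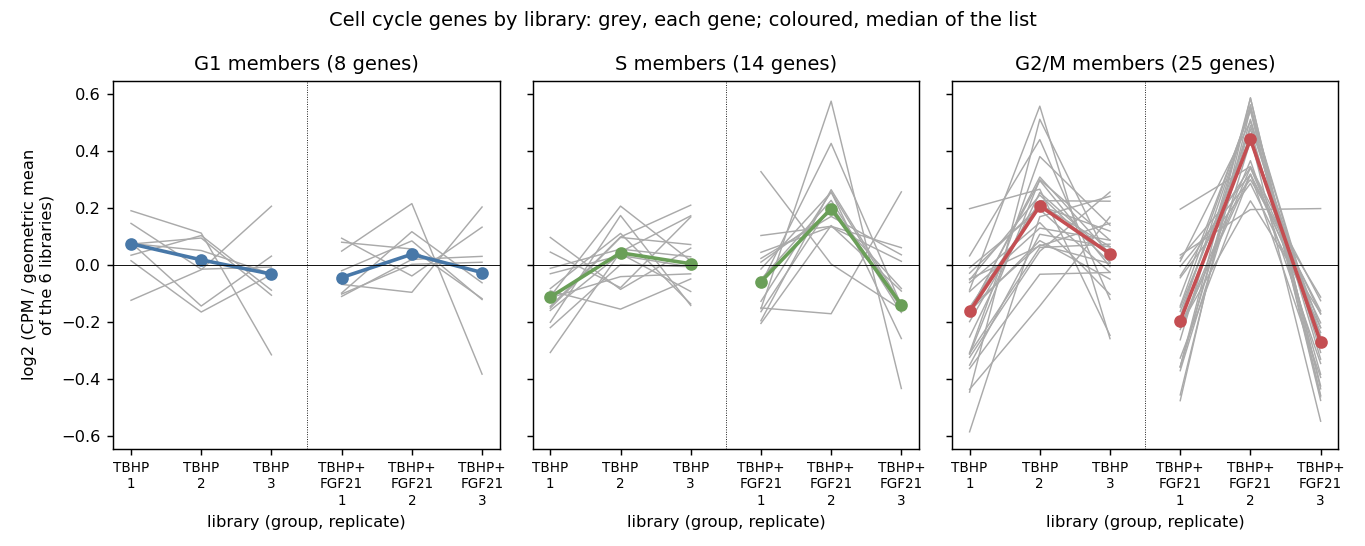
Level of each member in each library (x axis) as log2 of its CPM over its geometric mean in the 6 libraries (y axis), for G1 (8 genes), S (14 genes) and G2/M (25 genes); grey lines join the values of 1 gene within a group, coloured points give the median of the list, and the replicates have no order. In G2/M the medians are -0.16, 0.21 and 0.04 for TBHP replicates 1 to 3 and -0.20, 0.44 and -0.27 for TBHP+FGF21 replicates 1 to 3, while the G1 medians stay between -0.04 and 0.07.

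Leaving out TBHP+FGF21 replicate 2 moved the G2/M median most. Since this library was the highest for nearly all of these genes, a lower FGF21 mean follows from its removal. Without it, 23 of 25 G2/M members were lower with FGF21, with a median log2 fold change of -0.34, while the S and G1 medians were -0.04 and -0.06. By edgeR's quasi-likelihood test, 12 of the 25, all lower, then had an unadjusted p under 0.05, where the background was 23.6% of 11559 genes, 12% in the lower direction. Ube2c (-0.60 ± 0.17, SE) and Cdc20 (-0.38 ± 0.11, SE) passed the adjusted test, at adjusted p-values of 0.0373 and 0.0480, where the background was 7.5% of genes, 3.72% in the lower and 3.78% in the higher direction. The others with an unadjusted p under 0.05 were Aurka, Birc5, Bub1, Ccna2, Ccnb1, Kif23, Lmnb1, Nusap1, Pttg1 and Top2a in G2/M, and Rrm2 in S. These calls rest on the remaining TBHP+FGF21 libraries against TBHP, and the omitted library does not enter them. Its removal was bound to lower the FGF21 mean of these genes. With this library in the fit, the 12 G2/M genes called were already below 0 on the log2 scale. The lower direction of these 12 calls was therefore fixed in advance and is no separate result. Rrm2 was above 0 (0.05) with this library in the fit. The calls depend on leaving this library out, so by themselves they do not show a fall with FGF21. Without this library, Mcm2 and Cdc25b were at log2 fold changes of 0.19 and 0.26, with no unadjusted p under 0.05.

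Single libraries of either group turned the sign of the G2/M median. It was -0.12 without TBHP replicate 1, 0.10 without TBHP replicate 2, -0.04 without TBHP replicate 3, 0.10 without TBHP+FGF21 replicate 1 and 0.11 without TBHP+FGF21 replicate 3, and in these 5 fits no member passed the adjusted test. Replicate 1, the only FGF21 library whose treatment label carries FGF21, gave a G2/M median of -0.25 when compared alone with TBHP, with 19 of 25 lower. In that fit, 6 members (Aurka, Ccnb1, Cdc20, Kif23, Pttg1 and Ube2c) had an unadjusted p under 0.05, all lower, where the background was 14.2% of 11752 genes, 8.06% in the lower and 6.14% in the higher direction, and none passed the adjusted test, which 2.77% of genes passed (1.57% lower and 1.19% higher). It assumes that the lone library varies like those of the TBHP group. Foxm1 had log2 fold changes of 0.14 to 0.44 when 1 library was left out. Those of Mcm2, Mcm5, Mcm6 and Cdc25b were 0.17 to 0.23, 0.10 to 0.16, 0.09 to 0.19 and 0.18 to 0.34, whose sign could not turn because their groups do not overlap.

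**Figure D5:**
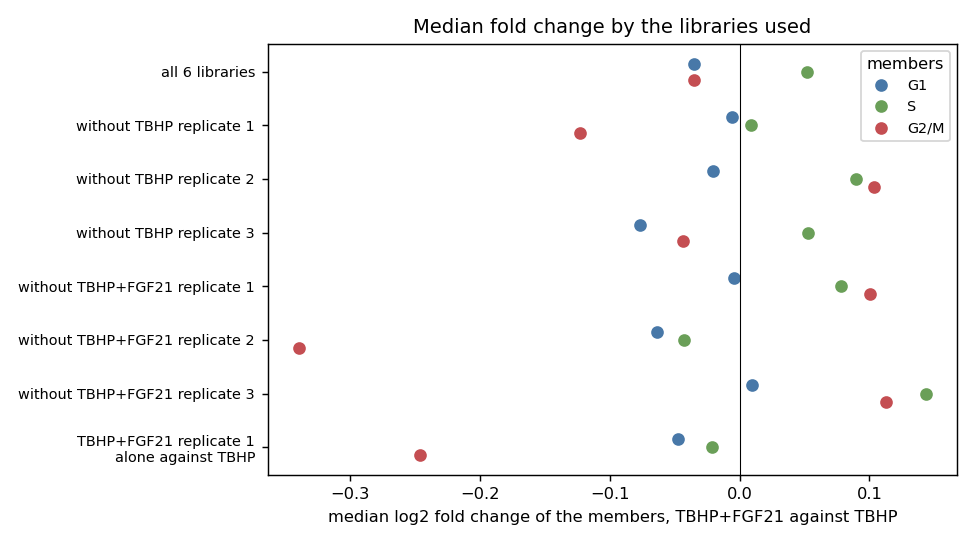
Median log2 fold change (x axis; TBHP+FGF21 against TBHP) of the G1 (blue), S (green) and G2/M (red) members, by the libraries in the fit (y axis). The G2/M median lies at -0.34 without TBHP+FGF21 replicate 2 and between -0.12 and 0.11 when any other single library is left out, whereas the G1 median stays between -0.08 and 0.01.

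Further genes of the cycle, from lists compiled by function, were counted in the same way. Among 53 tested of 55 further genes of mitosis, none had an unadjusted p under 0.05 in edgeR's quasi-likelihood test (8.92% of all genes), the median log2 fold change was -0.02, and TBHP+FGF21 replicate 2 was the highest library for 46 (10.3% of all genes). Without that library, the median was -0.26, 18 had an unadjusted p under 0.05, all lower, and 3 passed the adjusted test. The background was 23.6% and 7.5% of all genes, with 12% and 3.72% in the lower direction. Since that library was the highest for most of these genes, its removal was bound to lower their FGF21 mean. Among 38 tested of 39 further genes of replication, again none had an unadjusted p under 0.05, and TBHP+FGF21 replicate 2 was the highest for 15. Without it the median moved from -0.01 to -0.07. Of the 38, 6 then had an unadjusted p under 0.05 in the same test, all lower, where the background was 23.6% of all genes, 12% in the lower direction.

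Among 22 regulators of G1, of the retinoblastoma protein and of E2F, TBHP+FGF21 replicate 2 was the highest library for 6. An unadjusted p under 0.05 was found for 2 of the 22, close to the 8.92% of all genes. One was Tfdp2, an E2F dimer partner, at 4.13, 3.94 and 4.55 CPM with TBHP and at 3.03, 3.35 and 2.48 CPM with FGF21 (log2 fold change -0.51 ± 0.19, SE, and -0.60 without TBHP+FGF21 replicate 2). The other was Ccnh, the cyclin of the kinase that activates cyclin-dependent kinases, at 26.5, 28.8 and 25.0 CPM against 20.9, 23.3 and 19.9 CPM (-0.33 ± 0.11, SE, and -0.39 without that library). For both, the adjusted p over all genes was 0.553 in edgeR's quasi-likelihood test, and also without that library neither passed the adjusted test. Groups did not overlap for 5 of the 22: Tfdp2, Ccnh and its partner Mnat1 were lower with FGF21 (5% of all genes), and E2f3 and E2f4 were higher (4.9% of all genes).

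Among 8 tested inhibitors and p53 genes, TBHP+FGF21 replicate 2 was the highest of the 6 libraries for 0 (10.3% of all genes) and the highest of its own group for 4 (38.7% of all genes), and none had an unadjusted p under 0.05 in edgeR's quasi-likelihood test. Without that library, 3 had one, all lower, where the background was 23.6% of all genes, 12% in the lower direction. None of the 8 passed the adjusted test. Cdkn1a, the p21 inhibitor, was at 353, 303 and 286 CPM with TBHP and at 331, 284 and 346 CPM with FGF21. Cdkn2a, the p16 inhibitor, was at 55.4, 51.9 and 40.3 CPM against 33.9, 49.3 and 45.3 CPM, and both pairs of groups overlapped. Their log2 fold changes were 0.03 and -0.20, and 0.12 and -0.30 without TBHP+FGF21 replicate 2.

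The library pattern was also counted by promoter letters. Among G2/M members with a CHR, TBHP+FGF21 replicate 2 was the highest library for 13 of 14, and among those without, for 5 of 6. Of 495 other tested genes with a CHR and an NF-Y box, it was the highest for 15.8%, and their median log2 fold change was -0.02. The share was 12.4% of 1211 with a CHR and 11.9% of 1374 with an E2F core. It was 10.1% of all 9187 other tested genes with a promoter in the table. Only the members were left out of these genes, so the further genes of mitosis and replication can be among them. These shares are a description, since the genes were measured in the same 6 libraries.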

How the data were processed

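RNA-seq libraries were prepared by the authors from poly(A) RNA of rat NPCs, 3 per group. Raw counts were deposited by the authors for every library, in an unstranded column and a column per strand, whose totals were nearly equal (ratio 0.977 to 0.986), and a combined table of raw counts per gene symbol. The combined table, used here, was classed as one of estimated counts, since the authors left 22 rows with values ending in a fraction; these were rounded up, and none is a member. STAR and featureCounts are named in the submitters' processing notes, and versions, genome build and annotation are not given in the sources used here.

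Libraries were compared with edgeR 4.0.16 in R 4.3.3: TMM scaling, filterByExpr (minimum count 10, minimum total 15), glmQLFit and glmQLFTest with condition as the only term, and Benjamini-Hochberg adjustment over 11426 genes. Levels are CPM after TMM scaling, SE is the log2 fold change over the square root of F, and n = 3 per group. With 3 libraries against 3, an exact permutation test of a single gene cannot go below a two-sided p of 0.1, and none was run. Reads outside genes (9.13% to 10.4% of the total), multimapping (6.27% to 7.02%), unmapped (1.24% to 1.40%) or ambiguous (1.72% to 2.09%) stayed out. A gene with no count could be at up to 0.134 to 0.164 CPM (3 counts; counting error only). No pair of replicates agreed within sampling noise (chi-square per gene from 6.98 to 44.5).

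Members and lists were chosen with earlier results of these data known. Values in each library are given for the 3 members with the highest mean CPM and the 3 with the smallest p in each phase, those with an unadjusted p under 0.05, and Ccnd1, Ccne1, Mcm2, Pcna, Ccna2, Ccnb1, Cdk1, Top2a, Mki67, Foxm1 and Lmnb1. Ube2c, Rrm2 the members named from fits without a library, the markers named, E2f3, E2f4 and Mnat1 were chosen after their values were seen. Alternatives were the per-sample counts, other scalings and filters, DESeq2 1.42.0, limma-voom (limma 3.58.1), a block for the replicate number, the omission of each library, and TBHP+FGF21 replicate 1 alone. Fits were tested on simulated data.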

Additional observations from a re-analysis of the deposited data

How the results depend on the processing

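No other scaling, filter or test, and neither the per-sample counts nor the replicate block, brought a member past an adjusted p under 0.05. With 1 library left out in turn, 0 to 2 members passed, 2 without TBHP+FGF21 replicate 2. Members with an unadjusted p under 0.05 numbered 1 with DESeq2, 6 with TBHP+FGF21 replicate 1 alone against TBHP and 0 to 13 with 1 library left out. Of all genes, those with an adjusted p under 0.05 numbered 0 with the per-sample counts, 5 with no filter on low counts, 4 with DESeq2, 0 with limma-voom, 2 with the replicate block, 325 with TBHP+FGF21 replicate 1 alone, and 0 to 867 with 1 library left out; at an unadjusted p under 0.05 they numbered 1599 with the block, 1669 with replicate 1 alone and 337 to 2732 with 1 library left out. The cause was not tested.

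Ccnd3 (-0.055) and Cdk1 (-0.040) turned negative with TBHP+FGF21 replicate 1 alone. Log2 fold changes that changed sign with 1 library left out ran from -0.39 to 0.16 for Ccna2, -0.43 to 0.13 for Ccnb1, -0.066 to 0.093 for Ccnd3, -0.090 to 0.022 for Ccne1, -0.38 to 0.11 for Cdc20, -0.12 to 0.14 for Cdk1, -0.093 to 0.017 for Cdk4, -0.0040 to 0.21 for Kif20a, -0.28 to 0.039 for Lmnb1, -0.13 to 0.23 for Mki67, -0.19 to 0.020 for Pcna, -0.063 to 0.17 for Rrm1 and -0.43 to 0.090 for Top2a. The signs of Ccnd1, Cdk6, Foxm1 and Nusap1 did not change when 1 library was left out, and those of Mcm2, Mcm5, Mcm6 and Cdc25b could not, since their groups do not overlap.

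The replicate numbers showed no uniform pairing of the libraries. For replicates 1 to 3, same-numbered libraries deviated from their group means with correlations of -0.12, 0.21 and 0.15 across genes. That of replicate 2 was the highest of all pairs. TBHP replicates 1 and 3 correlated best with TBHP+FGF21 replicates 2 (0.09) and 1 (0.18). Whether the libraries were handled in pairs was not tested. With the replicate block, the G2/M median was -0.07 and Mcm2 and Cdc25b, as without it, had unadjusted but no adjusted p-values under 0.05. Of all genes, 1599 had an unadjusted p under 0.05 with the block and 1019 without it, in edgeR's quasi-likelihood test. Counting error was at most 10.7% for a member in a library, at 87 counts, which no G2/M member had. The biological coefficient of variation of the G2/M members had a median of 16.5%. What limits the G2/M values was not tested.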
